A study of Drosophila melanogaster with 6 samples.

Results

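The comparison described here sets Drosophila melanogaster larvae that express a histone acetyltransferase (HAT)-defective form of the chromatin enzyme Tip60, dTIP60E431Q, against larvae that carry the same GAL4 driver and no Tip60 transgene. It uses the 4 arrays labelled dTIP60E431Q and Control among the 6 arrays of the study, chosen by these labels alone. The dTIP60E431Q larvae came from males of the driver line GAL4-337 and virgin females homozygous for line B of the UAS-dTIP60E431Q transgene, inserted on chromosome 3. The Control larvae came from the same driver males and w1118 females. Another genotype, in which GAL4-337 drives wild-type Tip60 (dTIP60WT, line B), is given only for reference and is called dTIP60WT. The study describes the driver as ubiquitous and active from late embryonic development on. All larvae kept their own Tip60 gene on the X chromosome, so the mutant protein was made beside the native one. Embryos were collected over 3-hour windows, larvae were raised at 25°C for 3 days, and 35 whole larvae were pooled for the RNA of each array, with 2 separate pools for each genotype. With this driver, line B of the mutant is described as dying late in the second instar, and the larvae were taken before that. The mutant is a single insertion line, so that any effect of its position cannot be told apart from that of the mutant protein. Whether the pools of the genotypes had reached the same instar, or the same point within it, was not measured on the arrays and cannot be told apart from genotype.

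Tip60 is the catalytic subunit of a large complex that acetylates histones H4 and H2A and exchanges the histone variant H2Av, and it takes part in transcription and in the repair of broken DNA. The E431Q change lies in its catalytic domain, and an overproduced inactive enzyme can take the place of the native one in the complex. The RNA of a whole larva mixes that of fat body, muscle, gut, epidermis, nervous system and smaller organs. Larval genes follow a fixed calendar in which cuticle genes are switched on before each molt, growth genes run while the larva feeds, and storage protein and glue genes belong to the third instar.

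The question was how the whole larval transcriptome of the mutant stands against that of the driver control, by tissue, by stage and by process. The values are the deposited intensities of Affymetrix Drosophila Genome 2.0 probe sets, on a linear scale in arbitrary units. Changes are differences of mean log2 intensity, dTIP60E431Q minus Control, and every value given below as a rise, a fall or a change is on this log2 scale. A gene is said to have risen or fallen where its limma adjusted p was below 0.05 over all 18769 probe sets tested, and each gene is represented by its brightest probe set. Gene lists are described by how many members rose and fell and by their median change, with no test of the list. Some genes, such as Fbp2 and CCHa1, stand in several lists, so the lists are not separate evidence.

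As a check of the labels, the Tip60 probe set read 5172 and 5464 in the dTIP60E431Q pools and 30.8 and 29.2 in the Control pools, with 3045 and 2755 in the dTIP60WT pools. Its change was 7.47 ± 0.125 (SE, adjusted p = 0.00122), and this probe set does not tell the transgene from the native gene. Of 11982 genes, 1704 rose, which is 14.2% of those tested, and 1703 fell, which is also 14.2%. By probe set, 11.9% were higher and 11.7% lower. These are the shares against which each list below is to be read. The median change over all genes was 0.03.

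The rises were larger and the falls sat in brighter genes. At least a 2-fold difference was reached by 1190 of the genes that rose and 830 of those that fell, and at least 8-fold by 176 and 42. With the genes ranked by level into 4 classes of equal size, 179 rose and 74 fell in the dimmest class, and 544 rose and 999 fell in the brightest. That is 18.2% and 33.3% of the brightest class, and lists of bright genes are to be read against these shares too. The arrays were not on a common median: it was 51.5 and 51.9 in the dTIP60E431Q pools, 43.8 and 45.2 with dTIP60WT, and 44.4 and 43.6 in the Control pools. Scaling the arrays to one median lowered every change by 0.23, so that 32.8% of the called probe sets were higher, against 50.5% as deposited. The number of calls also rests on each single pool. Without Control replicate 1, 435 probe sets were higher and 341 lower, against 774 and 513 without Control replicate 2, 747 and 831 without dTIP60E431Q replicate 1, and 711 and 906 without dTIP60E431Q replicate 2, and 2238 and 2194 with all pools. Of the 162 called genes named in the text or figures, 60 passed without Control replicate 1, 87 without Control replicate 2, 100 without dTIP60E431Q replicate 1 and 102 without dTIP60E431Q replicate 2, and all kept their direction each time. In the lists given below without such a range, at most 6 members were called in one direction when any 1 pool was left out. That called genes kept their direction was largely fixed in advance, since a call needs a change large beside the difference between pools. With 2 pools per genotype, the p-values rest on 3 residual degrees of freedom. In whole larvae, fewer cells of a type and less RNA per cell cannot be told apart.

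The stage lists held the largest fall, that of Fbp2, and the highest list median, that of the Tweedle genes. Some genes of the third instar were lower, by as much as 286-fold for Fbp2, and many genes for new cuticle and its tanning were higher, TwdlH by 5.73 on the log2 scale. Of 23 storage and late gland genes of the third instar, 4 fell and none rose, 17.4% of them, near the share of all genes. The median of -1.16 changed with the setting and was -0.41 without Control replicate 1, -1.63 without dTIP60E431Q replicate 2 and -0.43 with a pseudocount of 16. Lsp2, a larval serum storage protein made by the fat body, read 139.6 and 130.0 in the dTIP60E431Q pools against 15146 and 13517 in the Control pools. Fbp2, a fat body protein switched on in the third instar, read 25.6 and 24.9 against 9579 and 5458. These were changes of -6.73 ± 0.128 and -8.16 ± 0.3 (SE, adjusted p = 0.0014 and 0.00415), and the mutant pools lay far below every Control and dTIP60WT pool, which read 13420.1 and 13157 for Lsp2 and 6784 and 5994 for Fbp2 with dTIP60WT. Of the intermolt salivary gland genes, ng3 read 449 and 1429 with dTIP60E431Q and 7646 and 6500.4 in Control, and fell by 3.14. ng1 read 1452 and 2676 against 6367 and 6084, and fell by 1.66. For ng3 and ng1 both mutant pools lay below both Control pools, though they differed from each other for ng3. Among the 4 ng genes, ng4 went the other way with a change of 4.54 that was not called.

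The glue genes, which larvae make late in the third instar, did not pass the test. Sgs7 read 3.85 and 10.9 in the dTIP60E431Q pools, 6.46 and 434 in the dTIP60WT pools and 359 and 7.95 in the Control pools. One Control pool and one dTIP60WT pool were high and all other pools low, so that the genotypes overlapped. None of the 7 Sgs genes was called, and their median was -0.98.

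The transcription factors that mark the passage of larval time moved in both directions. chinmo, a BTB factor of early larval stages, read 420.4 and 448 in the dTIP60E431Q pools and 173 and 158 in the Control pools, a rise of 1.39 ± 0.137 (adjusted p = 0.00809), and its 3 probe sets lay between 1.00 and 1.39. br, the Broad-Complex factor of late larvae and metamorphosis, read 125 and 117 against 505 and 343 and fell by 1.78. Of its 5 probe sets 4 were called lower, and the 5 spread from -1.78 to 0.25. Syp, an RNA-binding protein of late neuroblasts, read 217 and 231 with dTIP60E431Q and 594 and 607 in Control, a change of -1.42, while its other probe set stood at 0.36. Imp, the RNA-binding protein of early neuroblasts, read 827 and 868 against 534 and 534, a rise of 0.67 that was not called after median scaling (adjusted p = 0.142). In all 4 genes the brightest probe set separated the mutant pools from the Control pools without overlap.

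**Figure D1:**
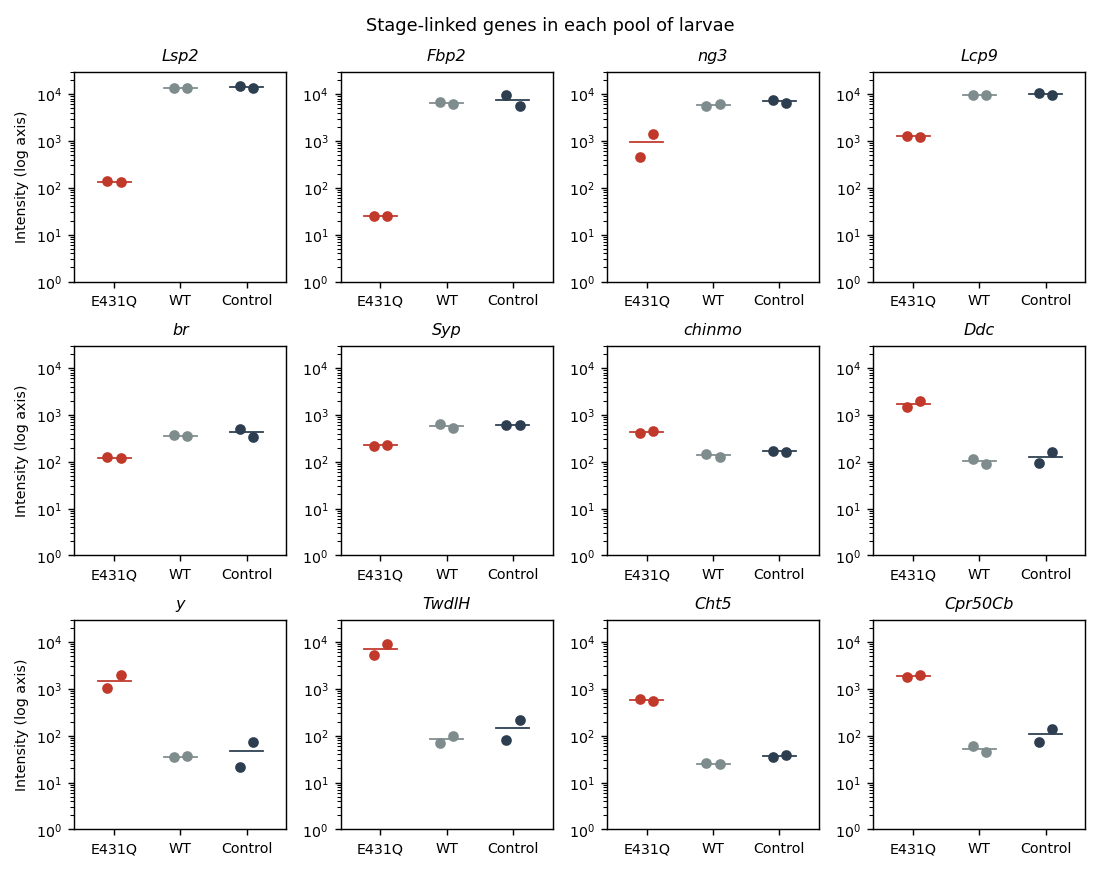
Intensity on a log axis of 12 stage-linked genes in each pool of larvae (points) with the mean of each genotype (bars), for dTIP60E431Q, dTIP60WT and Control. Lsp2 lay at 139.6 and 130.0 in the dTIP60E431Q pools against 15146 and 13517 in the Control pools, while TwdlH lay at 5173 and 9207 against 79.7 and 213; the dTIP60WT pools lay near the Control pools in all 12 panels.

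Of 66 Cpr genes, which encode chitin-binding proteins of the larval and adult cuticle, 25 rose and 8 fell, 37.9% and 12.1% of them. The median was 0.82. Cpr50Cb read 1824 and 1932 in the dTIP60E431Q pools against 71.9 and 141 in the Control pools, a rise of 4.22 ± 0.374 (adjusted p = 0.00743). Cpr76Ba read 375 and 478 against 37.1 and 47.1 and rose by 3.34. Members of the same family moved the other way, so the family did not rise as a block: Cpr78E fell by 2.86 and Cpr49Ah fell by 1.68. Without one pool at a time, 9 to 20 Cpr genes were higher and 2 to 5 lower, the 9 without dTIP60E431Q replicate 1.

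The Tweedle genes, another family of cuticle proteins, had the highest median of any list, 3.74, with 8 of 24 higher and 1 lower. TwdlH read 5173 and 9207 with dTIP60E431Q and 79.7 and 213 in Control, a rise of 5.73 ± 0.584 (adjusted p = 0.00862). TwdlN read 11250.1 and 11437 against 1047 and 2359 and rose by 2.85. TwdlO went the other way, at 2965 and 2762 against 7659.7 and 9000.1, a change of -1.54. The Control pools differed from each other in this family: 23 of 24 Tweedle genes were higher in Control pool 2 than in Control pool 1, by a median of 1.66, and 17 were over 2-fold apart. The number of Tweedle genes that rose was 2 to 13 as pools were left out in turn, with 13 without Control replicate 2, and their median stayed between 2.54 and 4.54. Probe sets of the Tweedle, Lcp65A and trypsin genes may not tell near-identical copies apart.

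Of 7 Lcp genes, the classical larval cuticle proteins, 2 fell and none rose, though 3 had positive changes, the highest 3.71. With the replicate number of the label added to the fit, 1 Lcp gene was called higher and 2 lower. Lcp9 read 1295 and 1196 in the mutant pools against 10429 and 9575 in the Control pools, and fell by 3.00. Lcp65Ae read 1926 and 1407 against 6305 and 6882 and fell by 2.00. Of 24 Osiris genes, a cluster of membrane proteins active in cuticle-forming epithelia, 2 rose. Osi2 read 956 and 1429 with dTIP60E431Q and 15.0 and 58.8 in Control, a rise of 5.30 ± 0.701 (adjusted p = 0.013). Osi6 read 3929.7 and 327 against 11.7 and 68.2 and did not pass (adjusted p = 0.0687). The mutant pools were over 2-fold apart for 12 Osiris genes, and pool 2 was lower by a median of 0.69.

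Genes of chitin synthesis and turnover rose in 8 of 28 cases and none fell, with a median of 0.45. Cht5, the main molting chitinase, read 592 and 553 in the dTIP60E431Q pools and 35.5 and 37.8 in the Control pools, a rise of 3.97 ± 0.118 (adjusted p = 0.004). knk, which protects new chitin, read 444 and 596 against 204 and 219.7 and rose by 1.28. Idgf1, a secreted chitinase-like protein, rose by 1.60. Fewer of these genes were called higher as pools were left out, and the list median stayed between 0.44 and 0.53. Hardening and colouring of the cuticle showed the same direction in 8 of 25 genes, and 1 fell. Ddc, which makes the dopamine used in tanning, read 1463 and 1989.7 against 92.5 and 162, a rise of 3.80. The pigment gene y read 1027 and 1965 against 21.3 and 74.6, a rise of 5.15. The pigment enzyme gene e rose by 2.17 and yellow-b by 2.32. In all these genes both mutant pools lay above both Control pools. y and Ddc were higher in Control pool 2 than in Control pool 1, as the Tweedle genes were.

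Hormone-linked genes were mixed. In the ecdysone list 5 of 17 rose and 3 fell. ImpE2, an ecdysone-induced gene of imaginal tissue, read 414 and 178 with dTIP60E431Q and 31.5 and 28.9 in Control, a rise of 3.17. ImpL1, another such gene, read 769 and 553 against 161 and 132 and rose by 2.16. MsrA, a methionine sulfoxide reductase induced by ecdysone, rose by 2.28. In the gland that makes the hormone, sro, a gene of ecdysone synthesis, read 28.9 and 23.3 against 121 and 82.6 and fell by 1.95 ± 0.24 (adjusted p = 0.0114). It was the only one of 12 prothoracic gland and corpora genes that passed; spok, of the same pathway, read 168 and 275 against 133 and 103 (change 0.88, adjusted p = 0.106). In the list of ecdysis peptides and receptors 2 of 7 rose; ETH, the hormone that triggers ecdysis, read 53.6 and 66.7 against 17.4 and 27.3 and rose by 1.46.

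Of 10 juvenile hormone genes 2 rose and 2 fell. JhI-26, a gene induced by juvenile hormone, read 3676 and 3251 in the dTIP60E431Q pools and 883 and 1055 in the Control pools and rose by 1.84. Kr-h1, the factor that carries the juvenile hormone signal, read 227 and 226 against 156 and 129, a rise of 0.68 that did not pass after median scaling (adjusted p = 0.0934). Jheh2, an epoxide hydrolase that breaks the hormone down, fell by 1.24. The list median was 0.15 as deposited and below 0 after median scaling.

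**Figure D2:**
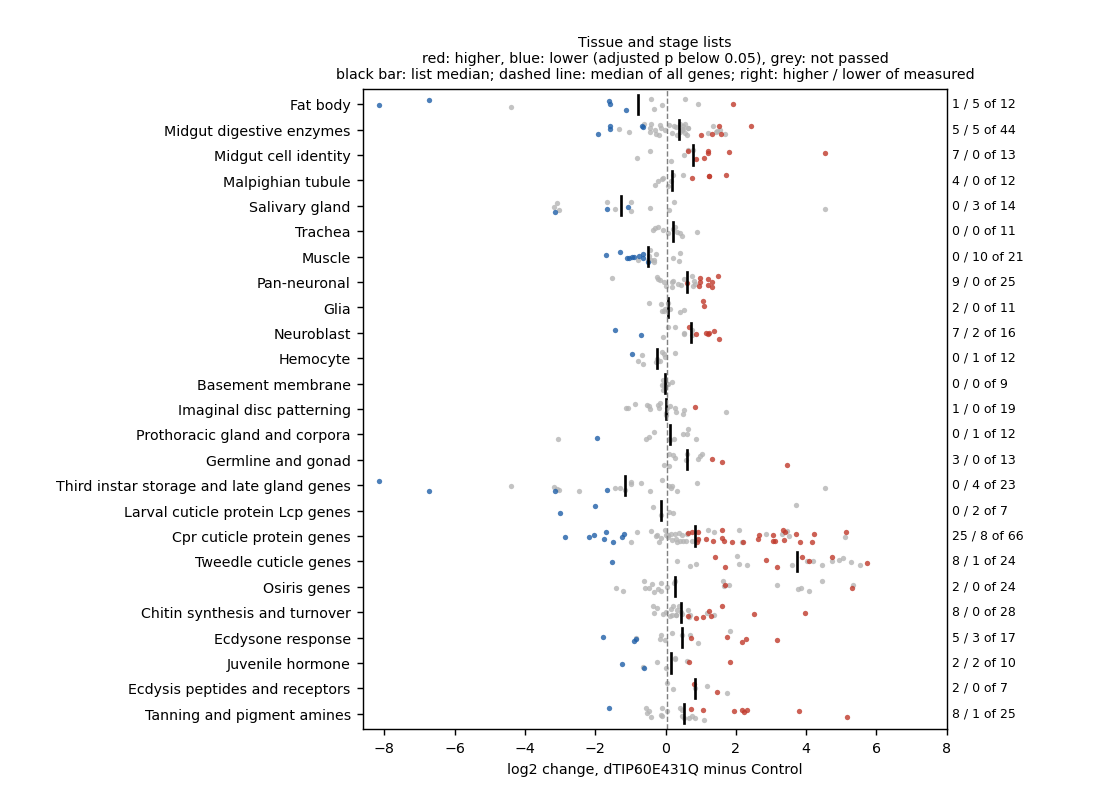
Change of each gene in the tissue and stage lists (points, log2 of intensity, dTIP60E431Q minus Control) with the list median (black bar) and the median of all genes (dashed line). Tweedle genes had a median of 3.74 with 8 of 24 higher, muscle genes a median of -0.50 with 10 of 21 lower, and pan-neuronal genes a median of 0.62 with 9 of 25 higher.

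By tissue, muscle and fat body genes held more falls than the 14.2% of all genes in each direction. Midgut identity, neural progenitor, pan-neuronal and Malpighian tubule genes held more rises than that share. Germline and glia genes did so for rises, and salivary gland genes for falls, to a lesser degree. Tracheal and basement membrane genes held no call. Of 21 muscle genes 10 fell and none rose, 47.6% of them, with a median of -0.50. This list was bright: 20 of the 21 lay in the brightest level class, where 33.3% of genes fell. Act87E, a muscle actin, read 2747 and 3862 in the dTIP60E431Q pools against 10613 and 10580.0 in the Control pools, a change of -1.70 ± 0.199 (adjusted p = 0.0105). sls, which encodes the giant sarcomere protein kettin, read 827 and 1081 against 2310.5 and 2356 and fell by 1.30. Mlp84B, a Z-disc protein, fell by 1.03, and bt, which encodes projectin, fell by 0.96. Tm2, tropomyosin, read 7295 and 7509 against 10199.8 and 10666, a change of -0.49, the smallest of the called members. As pools were left out in turn, between 0 and 2 muscle genes were called and the list median stayed between -0.67 and -0.47.

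Of 12 fat body genes 5 fell and 1 rose, with a median of -0.78. Beside the storage proteins, Lsd-1, the perilipin that coats lipid droplets, read 909.7 and 662 with dTIP60E431Q and 2334 and 2335 in Control, a change of -1.59. Mtp, which loads lipid onto lipoproteins, read 554 and 586 against 1276 and 1231 and fell by 1.14. Tsf1, an iron carrier of the hemolymph, read 415 and 655 against 1871 and 1329 and fell by 1.60, though its 3 probe sets spread from -1.60 to -0.14. The lipoprotein apolpp, the brightest gene of the list, read 11087 and 9539 against 13385 and 14139.9 (change -0.42, adjusted p = 0.0999). Both mutant pools lay below both Control pools for apolpp, and it was called lower after median scaling (adjusted p = 0.0413). The number of fat body genes called lower was 2 to 3 as pools were left out, and their median ranged from -0.81 to -0.54. The yolk protein gene Yp3 read 11.8 and 32.9 with dTIP60E431Q, 276 and 238 with dTIP60WT and 529 and 387 in Control, a change of -4.52.

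In the salivary gland list 3 of 14 fell and none rose, with a median of -1.26 that ranged from -1.56 to -0.39 as pools were left out. The largest change of the list was positive, that of ng4 at 4.54, and it was not called. Beside ng1 and ng3, Pig1, a pre-intermolt gland gene, read 871 and 1092 in the mutant pools and 2001 and 2078 in the Control pools and fell by 1.06. The gland factor fkh read 109.9 and 109.9 against 82.4 and 105 (change 0.24, adjusted p = 0.403).

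The gut lists differed in kind. Of 13 midgut identity genes 7 rose and none fell, 53.8% of them, with a median of 0.79. CCHa1, a peptide of enteroendocrine cells, read 560.4 and 485 in the dTIP60E431Q pools against 28.5 and 17.9 in the Control pools, a rise of 4.53 ± 0.294 (adjusted p = 0.00566). Dh31, another enteroendocrine peptide, read 178 and 150.4 against 48.1 and 45.9 and rose by 1.80. esg, the factor of midgut progenitors, read 149 and 147 against 65.8 and 72.1 and rose by 1.10. The gut factors cad and GATAe rose by 0.86 and 1.20. Without one pool at a time, 1 to 3 of these 13 genes were called. Among 44 digestive enzymes, in contrast, 5 rose and 5 fell. The trypsin alphaTry read 2558 and 3152 with dTIP60E431Q and 522 and 539 in Control, a rise of 2.42, and thetaTry read 719 and 643 against 1909 and 2202, a change of -1.59. Of 10 maltases 4 rose and 1 fell; Mal-A4 rose by 1.59 and Mal-A5 fell by 1.93. Neither direction held for the enzymes as a group.

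Of 12 Malpighian tubule genes 4 rose, with a median of 0.20 that was below 0 after median scaling. Best2, a chloride channel, read 675 and 885 with dTIP60E431Q and 246 and 227 in Control and rose by 1.71. The aquaporin Drip read 348 and 374 against 142 and 162 and rose by 1.25.

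Of 25 pan-neuronal genes 9 rose and none fell, 36.0% of them, with a median of 0.62. Snap25, a core protein of synaptic vesicle fusion, read 183 and 166 in the dTIP60E431Q pools and 70.5 and 67.7 in the Control pools, a rise of 1.33 ± 0.159 (adjusted p = 0.0107). unc-13, which primes vesicles, read 237 and 223 against 82.3 and 82.1 and rose by 1.48. Appl, the fly homologue of the amyloid precursor protein, read 215 and 201 against 89.2 and 91.8 and rose by 1.20. Gad1, which makes the transmitter GABA, rose by 1.32. elav, which marks all neurons, read 269 and 289 against 278 and 274 (adjusted p = 0.956), so that this marker overlapped between the genotypes where Snap25, unc-13, Appl and Gad1 did not. Both mutant pools lay above both Control pools for 16 of the 25 genes and below both for 2, and the rest overlapped. No pan-neuronal gene was called when any 1 pool was left out, while the list median stayed between 0.51 and 0.72.

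Of 16 neural progenitor genes 7 rose and 2 fell, with a median of 0.71. cas, a late temporal factor of embryonic neuroblasts, read 72.2 and 75.4 with dTIP60E431Q and 23.3 and 28.4 in Control and rose by 1.52. wor, a neuroblast transcription factor, rose by 1.24, and insc, which orients neuroblast divisions, by 1.17; insc was not called after median scaling (adjusted p = 0.0598). Of the 2 that fell, Syp is described above, and svp, a temporal switching factor, fell by 0.69 at its brightest probe set, with 3 probe sets from -0.69 to 2.05. Only 0 to 2 of the neural progenitor genes were called higher and 0 to 1 lower as pools were left out. In the glia list 2 of 11 rose, among them loco, a regulator of G-protein signalling, at 490.0 and 420.1 against 231 and 207, a rise of 1.05. The glial marker repo read 76.1 and 69.5 against 65.7 and 81.5 and was not called (adjusted p = 0.985). The glia median was 0.06 and fell below 0 after median scaling.

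Few genes were called in the other tissue lists, though the germline median was 0.61 and its gene osk rose by 3.46. The 11 tracheal genes and the 9 basement membrane genes held no call; the chitin deacetylase serp, a tracheal and cuticle gene, read 7466 and 8632 in the dTIP60E431Q pools against 6582 and 7170.1 in the Control pools (adjusted p = 0.313). Of 12 hemocyte genes, PPO1, the prophenoloxidase of crystal cells, read 504 and 437 against 1026 and 808 and fell by 0.96. Of 19 imaginal disc genes 1 rose, the signal hh, at 73.1 and 68.4 against 46.0 and 34.1, a rise of 0.84 that was not called after median scaling (adjusted p = 0.0853). Of 13 germline genes 3 rose: osk, the germ plasm organiser, read 34.4 and 51.0 against 2.35 and 6.2, though its 3 probe sets spread from 0.18 to 3.46. AGO3, a piRNA pathway protein, rose by 1.60. These germline genes were dim in every pool.

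The process lists gave the broadest falls. Genes for mitochondrial energy production, for the mitochondrial ribosome, for glycolysis and for the export of secreted proteins were lower in most members, while none of the cytosolic ribosomal genes fell. Of 73 genes of the respiratory complexes and ATP synthase 54 fell and none rose, 74.0% of them, with a median of -0.96. By complex, 27 of 32 complex I genes, 6 of 9 complex III genes, 7 of 14 complex IV genes and 10 of 14 ATP synthase genes fell, with medians of -1.08, -1.01, -0.65 and -0.82. Each of these also held 2 to 5 members with positive changes, none of which passed the test. Of the 73 genes 14 lay in the dimmest level class, and the complexes were not compared at equal level. SdhC, a membrane anchor of complex II, read 1423 and 1405 with dTIP60E431Q and 3550.0 and 4011 in Control, a change of -1.42 ± 0.124 (adjusted p = 0.00731). As pools were left out in turn, 15 to 34 of these genes were called lower and the median stayed at or below -0.90.

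Of 69 mitochondrial ribosomal protein genes 56 fell and none rose, 81.2% of them, with a median of -1.05; 37 of 44 large subunit and 19 of 25 small subunit genes were among them. mRpL20 read 117 and 119 in the dTIP60E431Q pools and 457 and 488 in the Control pools, and fell by 2.00 ± 0.118 (adjusted p = 0.0055). The cytosolic ribosome stood apart: of 34 genes none fell and 1 rose, with a median of -0.05, and RpS20 read 9967 and 10164 against 11716 and 11926 (change -0.23, adjusted p = 0.21). These cytosolic genes are among the brightest on the array, and how far the intensity scale is compressed there was not tested. The gene that rose, RpS19b, a copy of RpS19 used mainly in the germline, read 148 and 253 against 66.4 and 82.8 and was not called after median scaling (adjusted p = 0.0586). As pools were left out, 12 to 33 mitochondrial ribosomal genes were called lower.

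**Figure D3:**
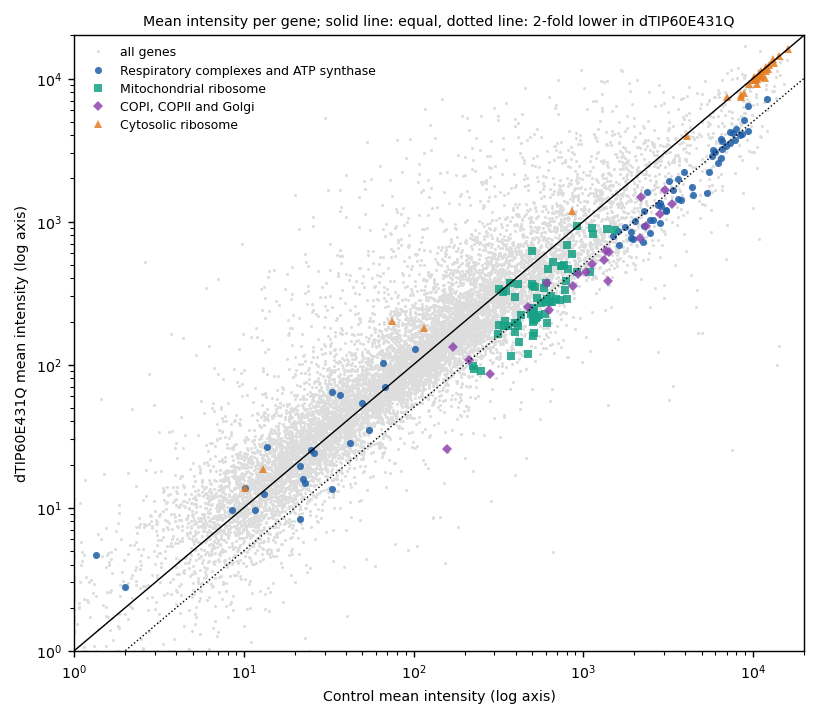
Mean intensity of each gene in dTIP60E431Q (vertical log axis) against Control (horizontal log axis), with the solid line at equality and the dotted line at a 2-fold lower level with dTIP60E431Q. The respiratory, mitochondrial ribosomal and COPI, COPII and Golgi genes lay mostly near the dotted line (medians -0.96, -1.05 and -1.24), and the cytosolic ribosomal genes near the solid line at the bright end (median -0.05).

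Import into mitochondria and the reactions that feed the respiratory chain had the same direction. Of 14 import genes 9 fell, with a median of -0.84; Tim8, a small chaperone of the intermembrane space, read 484 and 451 against 1444 and 1393, a change of -1.60. Of 16 tricarboxylic acid cycle genes 12 fell, with a median of -0.95; Idh3g, a subunit of isocitrate dehydrogenase, read 641 and 612 with dTIP60E431Q and 1794 and 1851 in Control and fell by 1.54. None rose in either list, and 2 to 6 import genes and 2 to 8 cycle genes were called lower as pools were left out. Of 11 glycolysis genes 10 fell and none rose, 90.9% of them, with a median of -0.89. Pgk read 1411 and 1385 in the mutant pools and 4705 and 4969 in the Control pools, a change of -1.79 ± 0.113 (adjusted p = 0.00561). Pgi read 1842 and 1757 against 5702 and 5827 and fell by 1.68, and Pfk, the rate-setting step, read 639.8 and 884 against 2272 and 2154 and fell by 1.56. For these genes both mutant pools lay below both Control pools. The glycolysis count was 3 to 5 as pools were left out in turn.

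Lipid genes split by function. Of 12 fatty acid oxidation genes 7 fell and 1 rose, with a median of -0.77, and 2 to 6 were called lower as pools were left out. Echs1 and scu, enzymes of the oxidation spiral, had changes of -1.51 and -1.52. The exception was whd, the carnitine palmitoyltransferase that admits fatty acids to mitochondria, at 1679.8 and 1879.6 in the dTIP60E431Q pools against 452 and 454 in the Control pools, a rise of 1.97 ± 0.123 (adjusted p = 0.0055), with its other probe set at 0.57. In lipid synthesis 5 of 22 fell and 2 rose: the fatty acid synthase FASN1 read 4865 and 4430.5 with dTIP60E431Q and 11413 and 11227 in Control, a change of -1.29, and ACC, the step before it, fell by 1.03. Lpin, a phosphatidate phosphatase of fat storage, and eas, of phosphatidylethanolamine synthesis, rose by 1.13 and 1.77.

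Sugar genes moved in both directions. AGBE and Glys, which build glycogen, had changes of -1.23 and -0.98. Treh, which cleaves trehalose, read 1252 and 1430.0 with dTIP60E431Q and 471 and 555 in Control and rose by 1.39. Pepck1, a gluconeogenic enzyme, read 7227 and 6151 against 3474 and 2533 and rose by 1.17. Of 28 genes of this list 7 rose and 4 fell, with a median of 0.48. After median scaling 5 were higher and 5 lower, and 0 to 3 were called in each direction as pools were left out.

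Genes that larvae raise when starved or when insulin and TOR signalling is low were higher. Of 20 such genes 11 rose and none fell, 55.0% of them, with a median of 0.86 that stayed between 0.84 and 1.01 as pools were left out. InR, the insulin receptor, read 429 and 397 in the dTIP60E431Q pools and 49.1 and 51.2 in the Control pools, a rise of 3.04 ± 0.135 (adjusted p = 0.00488). ImpL2, a secreted protein that binds insulin-like peptides, read 2646 and 2598 against 731 and 826 and rose by 1.75. REPTOR, a transcription factor that TOR holds in check, read 569 and 549 against 210.3 and 208 and rose by 1.42, and its partner REPTOR-BP rose by 1.60. All mutant values of these genes lay above all Control values. foxo, named after its values were seen, read 226 and 239 against 252 and 238 and was not called (adjusted p = 0.7). The number called was 4 to 6 as pools were left out.

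Autophagy genes had the same direction, with 10 of 29 higher, none lower and a median of 0.40. ref(2)P, the fly p62 adaptor, read 2385 and 3037 with dTIP60E431Q and 425 and 473 in Control, a rise of 2.59 ± 0.175 (adjusted p = 0.00566). Atg101 and Atg17, partners of the Atg1 kinase, rose by 1.73 and 1.55, and Atg8a, which coats the forming autophagosome, read 4965 and 5129 against 2613 and 2224 and rose by 1.07. The number called was 2 to 6 as pools were left out in turn. Of 17 cell death genes 5 rose and none fell; Dronc, the initiator caspase, read 171 and 150.3 against 53.6 and 59.3 and rose by 1.51, and the Bcl-2 relative Buffy rose by 1.42. Here 1 to 4 were called as pools were left out.

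Amino acid genes were divided. Among 25 enzymes 11 fell and 3 rose: Gs1, a glutamine synthetase, read 2971 and 3190.2 with dTIP60E431Q and 1149.7 and 1313 in Control and rose by 1.33, and aay, of serine synthesis, rose by 1.79. P5CDh1, of proline breakdown, fell by 1.54. As pools were left out in turn, 0 to 1 of these enzymes were called lower and 0 to 2 higher, and their median ranged from -0.48 to -0.09. Of 10 transporters 2 rose and 1 fell; NAAT1, of the midgut, read 306 and 237 against 32.9 and 45.7, a rise of 2.79, and path, a growth regulator, rose by 1.31.

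**Figure D4:**
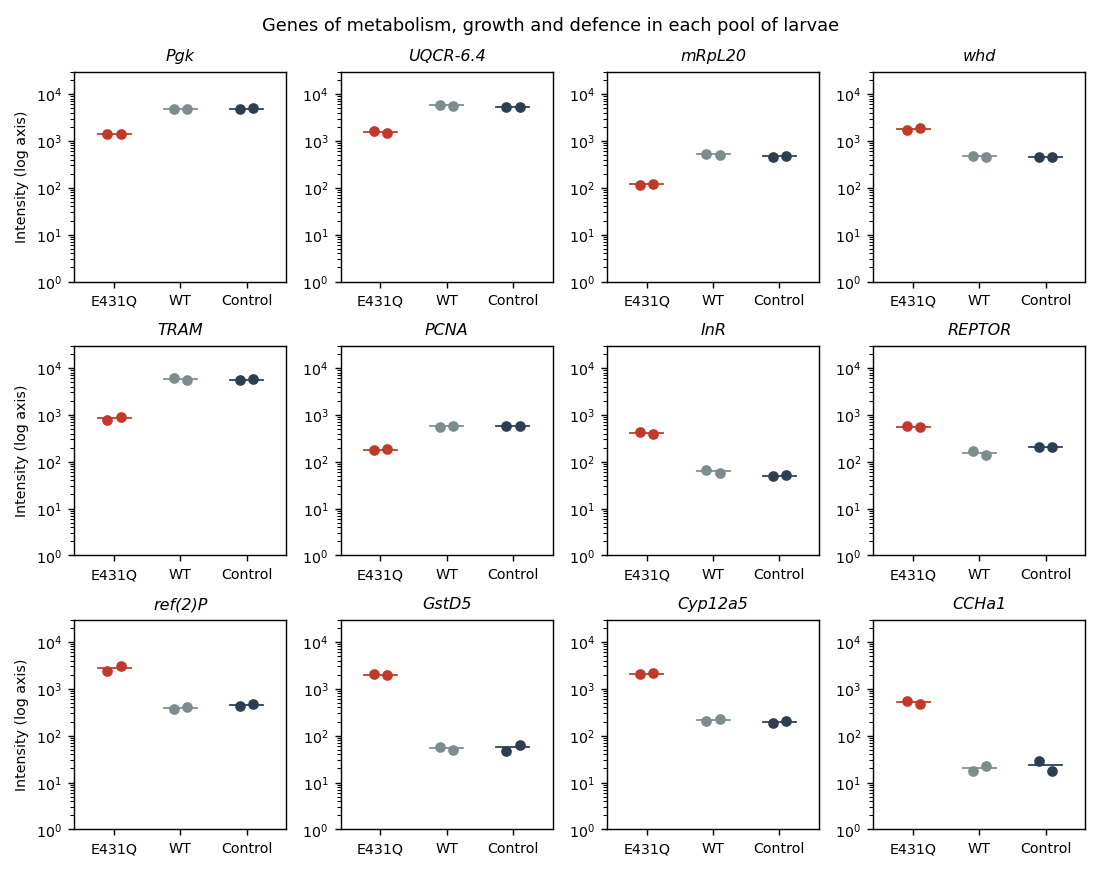
Intensity on a log axis of 12 genes of metabolism, growth and defence in each pool of larvae (points) with the mean of each genotype (bars), for dTIP60E431Q, dTIP60WT and Control. Pgk lay at 1411 and 1385 with dTIP60E431Q against 4705 and 4969 in Control, and InR at 429 and 397 against 49.1 and 51.2.

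The path of secreted proteins was lower at each step that was listed. Of 21 genes for the translocon and endoplasmic reticulum chaperones 19 fell and none rose, 90.5% of them, with a median of -1.29. Spase25, a subunit of the signal peptidase, read 554 and 533 in the dTIP60E431Q pools against 2488 and 2304 in the Control pools, a change of -2.14 ± 0.117 (adjusted p = 0.0055). Tapdelta, of the translocon-associated complex, read 1397 and 1258 against 4958 and 5065 and fell by 1.92. Of 18 N-glycosylation genes 9 fell, with a median of -0.74; Ostgamma and Stt3A, subunits of the oligosaccharyltransferase, had changes of -1.61 and -1.38. Of 21 COPI, COPII and Golgi genes 19 fell and none rose, 90.5%, with a median of -1.24; CHOp24, a p24 cargo receptor, read 766 and 769 against 2163 and 2144 and fell by 1.49. The counts were 9 to 14, 2 to 7 and 7 to 16 as pools were left out. The vacuolar ATPase, a proton pump, had none of 31 genes lower and 2 higher, with a median of -0.07, and 8 of the 31 lay in the dimmest level class.

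Protein turnover and folding fell in part. Of 40 proteasome genes 21 fell and 1 rose, 52.5% and 2.50% of them, with a median of -0.62. Among the subunits of the regulatory particle 9 of 12 Rpn and 4 of 6 Rpt genes fell, against 8 of 22 genes of the core. After median scaling 10 Rpn, 4 Rpt and 14 core genes were lower. The parts were not compared at equal level, and 9 of the 40 proteasome genes lay in the dimmest level class. Rpn12 read 399 and 419 with dTIP60E431Q and 879.5 and 849 in Control and fell by 1.08, whereas its copy Rpn12R rose by 1.77. Of 8 CCT chaperonin genes, which fold actin and tubulin, 7 fell; CCT3 fell by 0.96. Heat shock genes went both ways: Hsp26 read 1945 and 1758 against 241 and 297, a rise of 2.79, and Hsp68 read 162 and 111 against 555 and 720.1, a change of -2.23. When single pools were left out, 0 to 6 proteasome genes were called lower, and 0 to 3 of the 21 chaperonin and heat shock genes.

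Of 45 initiation and elongation genes 10 fell and 1 rose, 22.2% and 2.22% of them, with a median of -0.08, and eEF1delta, an elongation factor subunit, read 1401 and 1349 against 3392 and 3456, a change of -1.32. Of 29 aminoacyl-tRNA synthetases, which charge transfer RNAs with amino acids, 11 fell and none rose, 37.9% of them, with a median of -0.42; ArgRS fell by 1.47. In each of these lists 1 to 2 genes were called lower as pools were left out. Of 29 nucleolar genes 6 fell and 1 rose, the GTPase Non1, by 1.13.

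**Figure D5:**
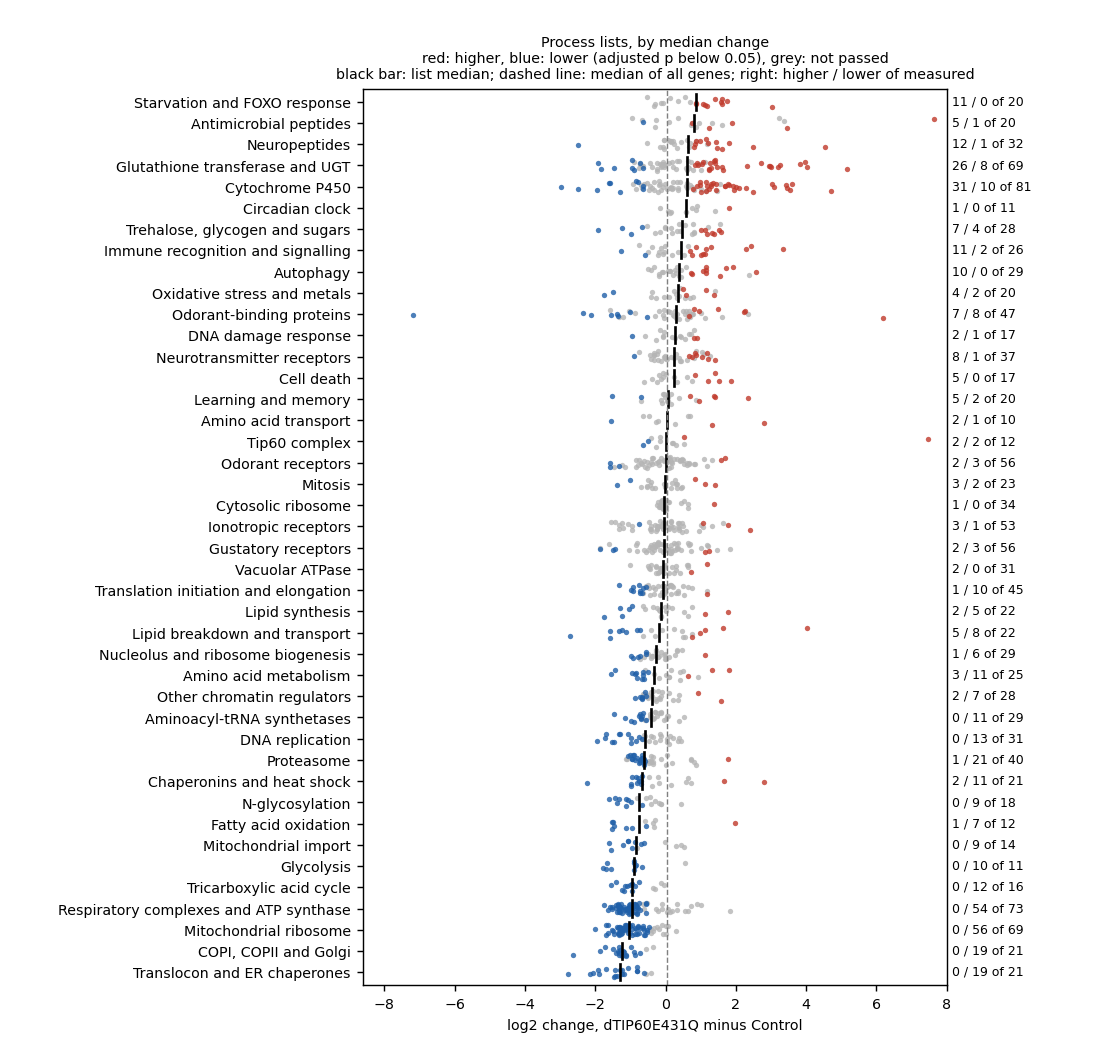
Change of each gene in the process lists (points, log2 of intensity, dTIP60E431Q minus Control), with lists in order of their median (black bar) and the median of all genes as a dashed line. At the bottom stand the translocon, COPI and COPII, and mitochondrial ribosome lists at -1.29, -1.24 and -1.05, and the starvation and FOXO list stands at the top at 0.86.

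Genes of DNA synthesis were lower, and those of mitosis moved in both directions. Of 31 DNA replication genes 13 fell and none rose, 41.9% of them, with a median of -0.59. PCNA, the sliding clamp of the polymerase, read 176 and 183 in the dTIP60E431Q pools and 588 and 566 in the Control pools, a change of -1.68 ± 0.113 (adjusted p = 0.00566). Cdc6, which loads the replicative helicase, read 27.5 and 26.8 against 107 and 102 and fell by 1.94. Of 5 Mcm helicase genes 4 fell, and Mcm3 fell by 1.53. Of 23 mitosis genes 3 rose and 2 fell, with a median of -0.01, and the condensin subunits split: Cap-G read 543 and 540.0 against 1356 and 1442, a change of -1.37, and glu read 344 and 393 against 144 and 132, a rise of 1.41. The replication count was 3 to 8 as pools were left out in turn.

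Among the 12 measured genes of the Tip60 complex, 2 rose and 2 fell. Apart from Tip60 itself, rept, a helicase shared with other complexes, read 608 and 632 in the dTIP60E431Q pools and 425 and 437 in the Control pools, a rise of 0.53 that was not called after median scaling (adjusted p = 0.161). Its partner pont read 223 and 202 against 347 and 320.5 and fell by 0.65. MrgBP read 372 and 378 against 536 and 532 and fell by 0.51. The variant histone that the complex exchanges, His2Av, read 1059 and 1097 against 1777 and 1794 and fell by 0.73 ± 0.114 (adjusted p = 0.0184). These differences were under 2-fold. Of 28 other chromatin regulators 7 fell and 2 rose: the histone deacetylase HDAC1 read 166 and 196 against 309 and 269 and fell by 0.67, and trx, a trithorax methyltransferase, read 231 and 276 against 126 and 139 and rose by 0.93. Of 17 DNA damage genes 2 rose and 1 fell; Xpc, which finds damaged bases, rose by 0.90, and grp, the checkpoint kinase Chk1, fell by 0.96, with 3 probe sets from -0.96 to 0.52.

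Detoxification genes rose in the largest numbers of any list, but their lists are among the largest. Their shares of 38.3% and 37.7% as deposited were below the 55.0% of the starvation list and the 42.3% of the immune recognition list. The order against the immune list did not hold after median scaling. There 25 of 81 P450 and 24 of 69 transferase genes were higher, against 5 of 26 immune recognition genes. Of 81 cytochrome P450 genes, which oxidise hormones and foreign compounds, 31 rose and 10 fell, 38.3% and 12.3% of them, with a median of 0.61. Cyp12a5 read 2061 and 2133 in the dTIP60E431Q pools and 187 and 206 in the Control pools, a rise of 3.42 ± 0.132 (adjusted p = 0.00422). Cyp9b2 read 8385 and 8689 against 952 and 1069 and rose by 3.08, and Cyp4p1 read 2451 and 2455 against 278 and 324 and rose by 3.03. By family, 11 of 23 Cyp6 genes rose and 3 fell, while 5 of 22 Cyp4 genes rose and 5 fell. Of 69 glutathione transferase and UDP-glycosyltransferase genes 26 rose and 8 fell, with a median of 0.62. GstD5 read 2030.4 and 1939 with dTIP60E431Q and 48.0 and 63.8 in Control, a rise of 5.16 ± 0.196 (adjusted p = 0.00415), and Ugt37A2 read 3889.5 and 3764 against 209 and 261, a rise of 4.03. Of 11 GstD genes 7 rose and none fell, whereas of 13 GstE genes none rose and 2 fell. The brightest GstD gene, GstD1, read 10199 and 9952 against 9969 and 10247 and was not called (adjusted p = 0.982). As pools were left out, 9 to 18 P450 genes and 11 to 17 of the transferase genes were called higher.

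Of 20 oxidative stress and metal genes 4 rose and 2 fell, and the pair that fell is mitochondrial: Prx3, a mitochondrial peroxidase, read 585 and 553 against 1870.0 and 1975, a change of -1.76, and Sod2 read 626 and 613 against 1684 and 1779, a change of -1.48. The metal-binding gene MtnD read 2052 and 2056 with dTIP60E431Q, 1380.5 and 1669 with dTIP60WT and 843 and 1005 in Control, a rise of 1.16, and MtnA read 9861 and 9602 with dTIP60E431Q, 9316 and 9788 with dTIP60WT and 6472 and 6642 in Control, a rise of 0.57 that was not called after median scaling (adjusted p = 0.116). For MtnA the dTIP60E431Q and dTIP60WT pools overlapped, both above Control.

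Immune genes were more often higher than lower as deposited. Of 26 recognition and signalling genes 11 rose and 2 fell, 42.3% and 7.69%, with a median of 0.45, and 2 to 3 were called higher as pools were left out. After median scaling 5 of the 26 were higher and 3 lower. puc, the phosphatase that answers JNK signalling, read 426 and 474 in the dTIP60E431Q pools and 196 and 213 in the Control pools and rose by 1.14. PGRP-SC2, an amidase that dampens the response to gut bacteria, read 1081 and 1169 against 2906 and 2503 and fell by 1.26. Of 20 antimicrobial peptide genes 5 rose and 1 fell. Drs, an antifungal peptide, read 4491 and 4423 with dTIP60E431Q, 57.5 and 46.7 with dTIP60WT and 886 and 184 in Control, a rise of 3.46 ± 0.776 (adjusted p = 0.0414). The Control pools differed widely for Drs, and both lay above the dTIP60WT pools. BomS6, a short secreted immune peptide, rose by 1.88.

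Among 32 neuropeptide genes 12 rose and 1 fell, 37.5% and 3.12%, with a median of 0.64. With 1 pool left out, 2 to 6 of these genes were called higher. Beside CCHa1 and Dh31, FMRFa read 78.0 and 89.4 with dTIP60E431Q and 29.2 and 32.2 in Control and rose by 1.44, and sNPF, a feeding peptide, read 73.4 and 72.1 against 24.5 and 23.6 and rose by 1.60. Nplp4, a neuropeptide precursor-like gene, went the other way, at 1261 and 1927 against 8453 and 8949.9, a change of -2.48. Ilp8, the relaxin-like peptide that disturbed tissues release to delay metamorphosis, was named after its values were seen: it read 85.3 and 81.0 against 10.3 and 21.3 and rose by 2.48 ± 0.399 (adjusted p = 0.0194). Of 37 transmitter receptors 8 rose and 1 fell, with a median of 0.25. After median scaling 3 of the receptor genes were higher and 4 lower, with a median of 0.02, and as pools were left out 0 to 1 were higher. Of 20 learning and memory genes 5 rose and 2 fell: rut, an adenylyl cyclase, read 94.4 and 172 against 20.4 and 30.9 and rose by 2.34, and scb, an integrin, read 646 and 633 against 213 and 273 and rose by 1.41. Fmr1, a translational repressor, read 112 and 111 against 295 and 349 and fell by 1.53, though its other probe set was called higher, at 0.84. The median of the learning list was 0.08 and fell below 0 after median scaling.

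Of 47 odorant-binding protein genes, some of which are expressed outside the olfactory organs, 7 rose and 8 fell. Obp99b read 72.3 and 125 in the dTIP60E431Q pools against 15273 and 12504 in the Control pools, a change of -7.18 ± 0.305 (adjusted p = 0.00463), next to Fbp2 the largest fall among genes above the median level. Neighbouring genes of this family moved apart: Obp56d read 8268 and 11160.4 against 1659 and 2493 and rose by 2.24, and Obp56e read 74.2 and 76.5 against 383 and 385 and fell by 2.35. The odorant, gustatory and ionotropic receptor lists held few calls, with 2 of 56, 2 of 56 and 3 of 53 higher and 3, 3 and 1 lower. Of these receptor genes 46, 45 and 47 lay in the dimmest of the 4 level classes. Of 11 clock genes only vri rose, a clock repressor, at 117 and 141 against 42.0 and 31.9, by 1.81.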

How the data were processed

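Gene expression in whole larvae was measured on 6 Affymetrix Drosophila Genome 2.0 arrays, 2 pools for each of 3 genotypes. By the study's methods, arrays were quantitated in GCOS and normalized and summarised in dChip; the baseline array, the probe model and the versions are not given in the sources used here. The deposited intensities were taken to be dChip indexes. The series number printed in the study differs, while its genotypes, platform and pools match. The values are linear, from 0.69 to 18115, with 1542 at exactly 1 and 12 below 1. They were put on the log2 scale as deposited, with no pseudocount or filter. The 183 Affymetrix controls of 18952 probe sets were left out.

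All 6 arrays entered 1 linear model with the genotype as its factor in limma 3.58.1 (R 4.3.3), moderated with eBayes (3 residual and 1.43 prior degrees of freedom, median residual SD 0.241), and p was adjusted by Benjamini-Hochberg over 18769 probe sets. The fit was tested on simulated data in which known changes were recovered. Symbols came from the platform annotation, brought up to date through gene identifiers: 13647 probe sets had 1 symbol, 402 several and 4720 none, and 103 of those with 1 symbol were not in the RefSeq table. For each of 11982 genes the brightest single-symbol probe set was used. Of 1094 genes with several probe sets, 15 had probe sets both higher and lower. Tables and plots were made in Python 3.11.15 with pandas 2.3.3 and matplotlib 3.10.9.

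Of 70 gene lists, 67 with at least 5 measured genes are described. The comparison and the lists were chosen with earlier results of these data known. The rule for named genes takes Tip60, the 12 largest rises and 12 largest falls among called genes above the median level, the 5 members of each list with the smallest p, the 2 with the highest level, and the tissue markers; any other gene is said to have been named after its values were seen. From the list of translocon and endoplasmic reticulum genes, members that had entered by the spelling of their names alone were removed. The replicate numbers of the labels pair nothing that is described: deviations of same-numbered pools correlated at -0.0125 between dTIP60E431Q and Control. Alternatives were a replicate block, a fit of only 4 arrays, median scaling, quantile normalization, trend and robust eBayes, a pseudocount of 16, a filter at the 40th percentile, each array left out, other thresholds, the methods' t-test, and probe sets averaged per gene. A motif search in promoters was not run, since no sequence was used here. Some genes are not reported here.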

Additional observations from a re-analysis of the deposited data

Results flagged for a closer look

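Among the control probe sets for Drosophila RNAs, which lie outside the tested table, one for 18S ribosomal RNA stood farthest above its level in Control larvae. The other Affymetrix controls were not compared. The probe set for the 3' part of 18S ribosomal RNA read 4256 and 4105 in the dTIP60E431Q pools, 1567 and 1490 in the dTIP60WT pools and 1863 and 1679 in the Control pools, so that the dTIP60E431Q mean was 2.36 times the Control mean. The probe sets for the 5' and middle parts of the same RNA gave ratios of 0.827 and 0.942. A pair of probe sets for the 5' part of Act5C, a cytoplasmic actin, stood at 1.48 and 1.47 times the Control mean, and those for Gapdh at 0.275 to 0.623 times. The ratio of 3' to 5' signal was 4.08 and 4.34 with dTIP60E431Q and 4.21 and 3.92 in Control for actin, 1.68 and 1.61 against 1.62 and 1.59 for Gapdh, and 3.7 and 3.33 against 4.38 and 4.24 for eIF-4a. The part of ribosomal RNA carry-over or RNA quality in the gene changes was not tested.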

How the results depend on the processing

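With 2 pools per genotype the number of calls rests on the spread estimate. All 4432 called probe sets kept their direction in every setting that tested them, which was largely fixed in advance. The replicate block, the fit of only 4 arrays and the trend and robust options leave each change as it was. A call also needs a change large beside the difference between pools, so leaving out 1 array could hardly turn it. Against 2238 higher and 2194 lower, the fit with a replicate block gave 1425 and 1250, and the fit of only 4 arrays gave 1449 and 1305. Leaving out 1 array gave 435 to 774 higher and 341 to 906 lower, and a lone array was then taken to vary like the other genotypes. A fold of at least 2 beside the adjusted p left 1574 and 1124, and an unadjusted p of at most 0.05 with a fold over 2 gave 2035 and 1347. The methods' t-test, at a fold of at least 2 and without their confidence bound on the fold, gave 774 and 784 before adjustment. After Benjamini-Hochberg it gave 0 and 0, where limma at the same fold gave 1574 and 1124. Same-numbered pools share only a number: the block kept 1335 and 1216 of the called probe sets. Median scaling gave 1547 and 3172, quantile normalization 1965 and 2767, trend and robust options 2992 and 2878, the pseudocount 2967 and 2611, and the filter 2788 and 2780.

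Of 67 lists, 32 had a median above that of all genes, 32 to 37 over all settings. The median of 10 lists changed sign under median scaling, which moves all genes alike and that of all genes to -0.20. Against the median of all genes, 59 of 67 lists kept their side without dTIP60E431Q replicate 1, 61 under quantile normalization, and 62 to 67 otherwise. No called gene named in the text changed sign, which the call itself largely fixed in advance. Among genes that did not pass, the change of elav was -0.218 under median scaling, -0.0889 under quantile normalization and -0.0373 to 0.0665 with 1 array left out. That of serp was -0.0077 under median scaling. GstD1 gave 0.165 under quantile normalization and -0.0245 to 0.0152 with 1 array left out, and repo gave -0.164 to 0.148. The cause of these turns was not tested. Dim probe sets limit the receptor lists.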

Other observations

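Several of the largest changes lay in genes known only by their annotation number. CG9259 read 127 and 120.0 in the dTIP60E431Q pools and 2657 and 2863 in the Control pools, a change of -4.48 (limma, adjusted p = 0.004), and CG30288 read 19.8 and 14.0 against 411 and 378, a change of -4.57. CG32249 read 247 and 254 with dTIP60E431Q and 6422 and 2828 in Control. In the other direction, CG6865 read 164 and 164 with dTIP60E431Q and 5.07 and 2.39 in Control, CG14565 rose by 5.37, and CG4229 read 4989 and 4416 against 43.1 and 208. For CG4229 the Control pools differed, with pool 2 the higher, as in the Tweedle genes. By chromosome arm, 12.3% to 14.8% of genes rose. Of the genes on 3R 477 of 2975 fell, against 12.9% on 2R, 13.7% on 3L, 13.8% on X, 14.5% on 2L and 9 of 65 on chromosome 4. The arms were not tested against each other.

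Lipid breakdown and transport genes moved in both directions, with 5 of 22 higher and 8 lower and a median of -0.20. Within the Npc2 family of sterol-binding proteins, Npc2b read 1019 and 1134 with dTIP60E431Q and 489 and 495 in Control, a rise of 1.13, and Npc2g read 1982 and 1892 against 4848 and 4873, a change of -1.33.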
